A study of Homo sapiens with 25 samples.

Results

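Small nucleolar RNA (snoRNA) host genes and the snoRNA rows of the count table were followed across 4 drug groups of A549 cells. Members were found by symbol. Host genes were every SNHG gene with a number, GAS5, ZFAS1, DANCR and EPB41L4A-AS1, and snoRNA rows were every SNORA, SNORD and SCARNA row, each with a count of 10 or more in at least 3 of the 12 libraries. This gave 60 members among the 28395 gene rows of the table, 25 host genes and 35 snoRNA rows. Of 29 host symbols in the table, SNHG18, SNHG22, SNHG27 and SNHG31 were below the rule. SNHG14, SNHG25, SNHG26 and SNHG30 were not analysed here. Of 412 snoRNA rows in the table, 145 had no count in any library and 377 were below the rule. The 35 members were 13 SNORA, 21 SNORD and 1 SCARNA row.

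The study used A549, an established human lung carcinoma line, whose TRRAP protein carries an mAID degron tag. TRRAP is the large scaffold shared by the histone acetyltransferase complexes SAGA and TIP60. All 12 libraries came from cells synchronized by 20 h in 2 mM thymidine, followed by 4 h in fresh medium, and described by the depositors as S-phase cells. The 4 groups of 3 libraries were DMSO, prexasertib (a CHK1 checkpoint kinase inhibitor, given for 3 h), 5-Ph-IAA (the ligand that triggers degradation of the tagged protein, 1 µM for 6 h) and both drugs. The question set by the design is what loss of TRRAP does to RNA levels with and without CHK1 inhibition. The RNA labels give the genotype as WT although their growth protocol names the mAID-TRRAP cells, and they give a prexasertib dose whose unit differs from that of the series' chromatin samples, so no dose is used. Cells without the degron given 5-Ph-IAA, and the level of TRRAP protein, were not analysed here, so an effect of the compound and one of losing TRRAP cannot be told apart.

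Most human snoRNAs lie inside introns of longer genes, are released when those introns are spliced out, and guide chemical modification of ribosomal RNA. Box C/D snoRNAs (SNORD) guide ribose methylation, box H/ACA snoRNAs (SNORA) guide conversion of uridine to pseudouridine, and SCARNAs act on spliceosomal RNAs in Cajal bodies. The hosts are either protein-coding genes, many of them for ribosomal proteins and translation factors, or noncoding genes whose spliced RNA is often removed by nonsense-mediated decay. Many hosts begin transcription at a run of pyrimidines, the terminal oligopyrimidine (TOP) start of genes of the translation apparatus.

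The start sites of the hosts are shown first because they divide the genes by this feature. Of the 25 hosts, 22 had an entry in the RefSeq promoter table (GRCh38.p14), and SNHG6, SNHG9 and SNHG15 did not. A TOP-like start was counted where the annotated first base was C and began an unbroken run of at least 5 bases of C or T. It was found in 6 of the 22 hosts (27.3%) and in 4.04% of the 27305 promoters of the table. Each line gives 40 bases before the annotated start and 40 from it on, in the direction of transcription, with the pyrimidine run at the start in capitals. The first 6 genes carry the run, and SNHG3 and SNHG17 have none.
SNHG4 (chr5:139274061-139274140, plus strand): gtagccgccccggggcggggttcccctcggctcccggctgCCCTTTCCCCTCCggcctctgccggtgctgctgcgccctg
SNHG12 (chr1:28581834-28581913, minus strand): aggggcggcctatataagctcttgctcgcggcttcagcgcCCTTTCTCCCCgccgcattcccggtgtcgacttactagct
SNHG19 (chr16:2155319-2155398, minus strand): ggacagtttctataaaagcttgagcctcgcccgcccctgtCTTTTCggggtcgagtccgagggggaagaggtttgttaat
SNHG32 (chr6:31834876-31834955, plus strand): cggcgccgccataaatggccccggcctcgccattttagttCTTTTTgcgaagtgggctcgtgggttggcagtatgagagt
SNHG5 (chr6:85678694-85678773, minus strand): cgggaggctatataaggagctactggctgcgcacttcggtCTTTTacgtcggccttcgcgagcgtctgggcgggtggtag
ZFAS1 (chr20:49278602-49278681, plus strand): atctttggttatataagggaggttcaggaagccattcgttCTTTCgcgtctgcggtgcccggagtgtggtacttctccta
SNHG3 (chr1:28505903-28505982, plus strand): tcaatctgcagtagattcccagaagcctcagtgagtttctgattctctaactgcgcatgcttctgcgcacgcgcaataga
SNHG17 (chr20:38435289-38435368, minus strand): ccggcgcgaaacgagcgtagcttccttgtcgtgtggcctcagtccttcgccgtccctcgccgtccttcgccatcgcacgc
The runs were 13 bases long in SNHG4, 11 in SNHG12, 6 in SNHG19 and SNHG32, and 5 in SNHG5 and ZFAS1. The hexamer CACGTG, an E-box to which MYC and related factors can bind and which reads the same on both strands, was found from 250 bases before to 50 after the start in 1 of the 22 hosts (SNHG7) and in 7.43% of all promoters. These matches describe annotated sequence and say nothing of which start the cells used.

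Total counts per library ran from 10830048 to 17789482. The libraries numbered 3 stood apart in every group: their counts differed from those of numbers 1 and 2 by a chi-square per degree of freedom of 14.2 to 21.3, against 2.3 to 4.21 between numbers 1 and 2. The factors that scale the libraries for composition ranged from 1.02 to 1.1 where 5-Ph-IAA was given and from 0.925 to 0.978 elsewhere. KRT7, KRT8 and KRT18, keratins of simple epithelia, were at 1580 to 3850 CPM (counts scaled to library size) in every library and CDH1 at 74.5 to 117 CPM, whereas KRT19 was at 1.01 to 7.13 CPM and EPCAM at 0.452 to 1.34 CPM. Of genes of alveolar type 2 cells, the surfactant genes SFTPB and SFTPC were at 0 and at most at 0.733 CPM, NAPSA at 1.71 to 5.5 CPM and LAMP3 at 2.96 to 6.74 CPM. Of markers of other cells, DCN was at 0 and PTPRC at most at 0.481 CPM, while CD68 (27 to 37.2 CPM) and ACTA2 (57.6 to 130 CPM) were measured in all libraries. In bulk RNA, fewer cells that express a gene and less RNA per cell cannot be told apart.

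Host genes fell with 5-Ph-IAA. Their summed level was 1336 to 1489 CPM in the DMSO libraries and 917.9 to 1178 CPM in the 5-Ph-IAA libraries, so the ranges did not overlap. Against DMSO, 15 of the 25 hosts were called lower and 0 higher by edgeR at an adjusted p under 0.05, where 12.2% of all 14658 genes tested were called lower and 9.65% higher. The median log2 fold change was -0.61 over the hosts and 0.01 over all genes tested. With library size alone as scaling, which moved the median of all genes to 0.16, the hosts' median was -0.46 and 14 were called lower. The share of all genes called under that scaling is not given here, so the count of 14 cannot be read as particular to the hosts. With the replicate number as a block, 20 hosts were called lower and 0 higher, against 23.6% of all genes called lower and 19% higher. In 15 hosts all 5-Ph-IAA libraries lay below all DMSO libraries, as in 18.9% of all genes tested.

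The same contrast was made a second time in the presence of prexasertib, between groups that the first one did not compare. Both contrasts came from the same fit, which estimated the spread over all 12 libraries, and they share replicate numbers. The second is therefore not an independent repeat. There the summed host level was 1483 to 1613 CPM with prexasertib alone and 1029 to 1225 CPM with both drugs. Of the 25 hosts, 12 were called lower and 0 higher, against 10.4% of all genes tested called lower and 7.85% higher. The hosts' median log2 fold change was -0.59. All 12 were among the 15 of the first contrast, which is 100% of the shorter list and 80% of the longer, and SNHG8, SNHG10 and SNHG20 were called only in the first. A fit with the replicate block called 16 hosts lower, SNHG8, SNHG20, SNHG29 and EPB41L4A-AS1 in addition, against 19.9% of all genes called lower. The interaction test of whether the effect of 5-Ph-IAA differed with prexasertib called 0 hosts.

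**Figure D1:**
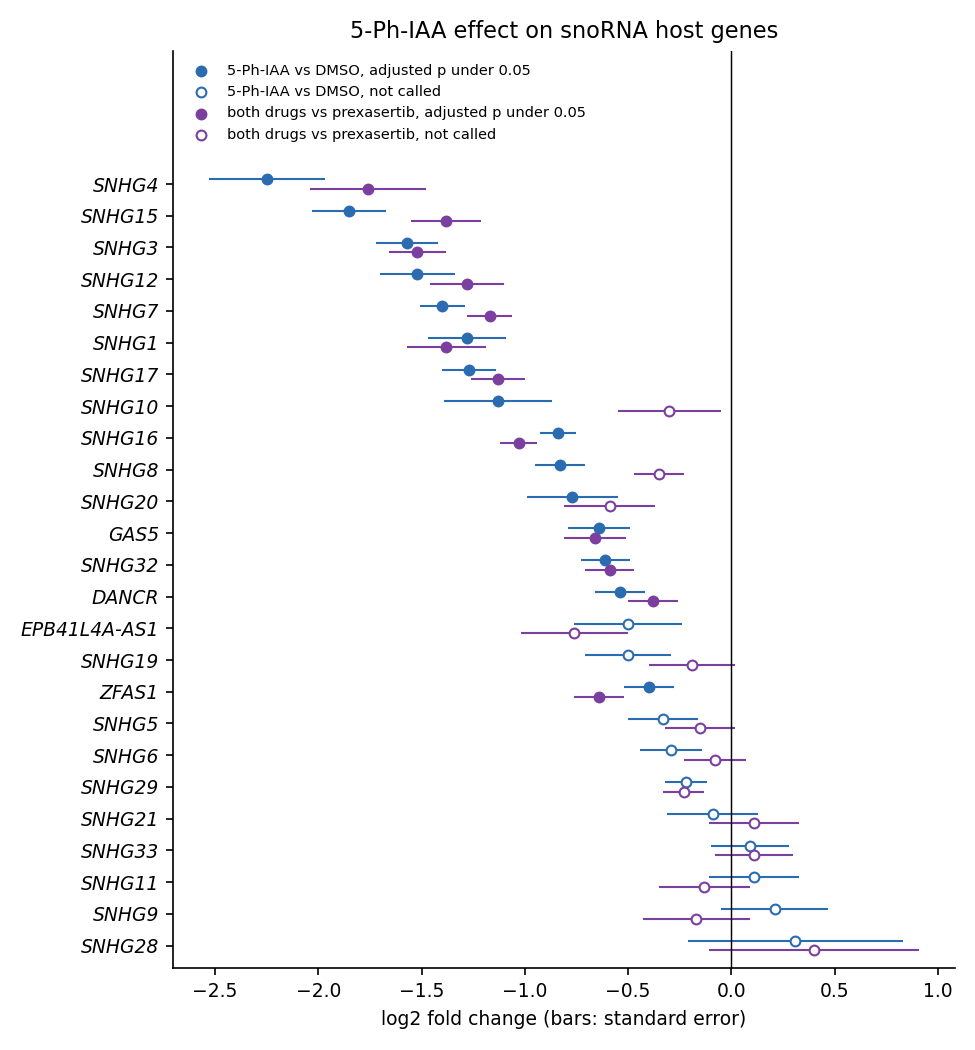
Log2 fold change of the 25 host genes (horizontal axis, bars are the standard error) for 5-Ph-IAA against DMSO and for both drugs against prexasertib; filled points were called at an adjusted p under 0.05. SNHG4 lies farthest to the left at -2.25, and the genes from SNHG29 down lie close to 0 in both contrasts.

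SNHG4, a host of SNORA74 box H/ACA snoRNAs, had the lowest fold change of the hosts. Its level was 4.45, 6.95 and 7.78 CPM in the DMSO libraries and 1.34, 1.23 and 1.44 CPM in the 5-Ph-IAA libraries. It was 6.07, 6.45 and 6.41 CPM with prexasertib and 1.17, 2.4 and 2.08 CPM with both drugs. All 6 libraries with 5-Ph-IAA lay below all 6 without it. The log2 fold change was -2.25 ± 0.28 (SE, n = 3 per group, adjusted p = 1.2e-04) against DMSO, a level 4.77-fold lower, and -1.76 ± 0.28 (adjusted p = 7.4e-04) against prexasertib. SNHG4 lies on the same strand as MATR3, whose own log2 fold change was -0.29 (adjusted p = 0.014), and how reads of the overlap were assigned is not given in the sources used here.

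SNHG15, which holds SNORA9, was at 13.3, 15.7 and 16.1 CPM in DMSO and at 4.16, 5.09 and 3.11 CPM in 5-Ph-IAA. With prexasertib it was at 14.6, 14.7 and 12 CPM, and with both drugs at 5.42, 5.06 and 5.42 CPM. Every library with 5-Ph-IAA was lower than every library without it, and prexasertib alone left the ranges overlapping. The fold changes were -1.85 ± 0.18 (adjusted p = 1.1e-05) and -1.38 ± 0.17 (adjusted p = 1.4e-04) on the log2 scale.

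SNHG3, the host of the U17 snoRNAs SNORA73A and SNORA73B, moved with both drugs. It was at 24.4, 27.2 and 32.5 CPM in DMSO, at 39.1, 43.7 and 41 CPM with prexasertib, at 7.8, 9.04 and 11.6 CPM with 5-Ph-IAA and at 13.1, 14.2 and 15.9 CPM with both. The 4 groups did not overlap, with prexasertib highest and 5-Ph-IAA lowest. 5-Ph-IAA lowered it by a log2 fold change of -1.57 ± 0.15 against DMSO (adjusted p = 1.1e-05) and of -1.52 ± 0.14 against prexasertib (adjusted p = 1.4e-05). RCC1, a protein-coding gene that overlaps SNHG3 on the same strand, also fell (-0.80 ± 0.068, adjusted p = 4.4e-06), so the division of reads between the pair is uncertain.

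SNHG12 holds 4 snoRNA entries, SNORA61 among them. Its levels were 8.82, 10.4 and 7.86 CPM in DMSO, 2.9, 3.19 and 3.34 CPM in 5-Ph-IAA, 9.42, 10.4 and 8.79 CPM with prexasertib, and 3.98, 4.53 and 3.26 CPM with both. The libraries with 5-Ph-IAA lay below all others, and the fold changes were -1.52 ± 0.18 (adjusted p = 7.4e-05) and -1.28 ± 0.18 (adjusted p = 3e-04) on the log2 scale. TRNAU1AP, on the opposite strand over SNHG12, fell by a log2 fold change of -0.50 (adjusted p = 0.018).

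SNHG7, the host of SNORA17A and SNORA17B, had the smallest adjusted p of the hosts. It was at 40.7, 45.8 and 47.1 CPM in DMSO and at 16.2, 16.1 and 18.2 CPM in 5-Ph-IAA. With prexasertib it was at 46.2, 48.5 and 58.1 CPM, and with both drugs at 22.7, 21 and 24.1 CPM. The groups with and without 5-Ph-IAA were far apart relative to their spread, at -1.40 ± 0.11 (adjusted p = 2.3e-06) and -1.17 ± 0.11 (adjusted p = 1.1e-05) on the log2 scale.

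SNHG1, the U22 host gene that carries a cluster of 8 box C/D snoRNAs (SNORD22 and SNORD25 to SNORD31), was at 60.4, 67.1 and 53 CPM in DMSO and 27.9, 23.5 and 22.8 CPM in 5-Ph-IAA. It was at 78.3, 95.3 and 55 CPM with prexasertib and at 31, 33.9 and 22.9 CPM with both. The libraries numbered 3 were the lowest in all 4 groups, and the groups with 5-Ph-IAA lay below the others throughout. The log2 fold changes were -1.28 ± 0.19 (adjusted p = 5.7e-04) and -1.38 ± 0.19 (adjusted p = 4.1e-04).

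SNHG17 holds the SNORA71 group of snoRNAs. It was at 34.1, 37 and 44.7 CPM in DMSO, 13.6, 16.4 and 18 CPM in 5-Ph-IAA, 32.9, 34.7 and 39.2 CPM with prexasertib, and 16.7, 14.9 and 17.2 CPM with both. Here the 5-Ph-IAA and combined groups overlapped each other and lay far below the rest, with log2 fold changes of -1.27 ± 0.13 (adjusted p = 2.2e-05) and -1.13 ± 0.13 (adjusted p = 7.3e-05).

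SNHG16, which holds the box C/D snoRNAs SNORD1A to SNORD1C, was at 100, 91.7 and 100 CPM in DMSO, 58, 54.7 and 50.7 CPM in 5-Ph-IAA, 129, 110 and 116 CPM with prexasertib, and 59, 62.6 and 52.2 CPM with both. Its fold changes were -0.84 ± 0.089 (adjusted p = 2.9e-05) and -1.03 ± 0.089 (adjusted p = 6.1e-06), with small spread within each group. SNHG8, the host of SNORA24, was at 22.8, 21.6 and 19.8 CPM in DMSO and 12.5, 10.7 and 13 CPM in 5-Ph-IAA, a log2 fold change of -0.83 ± 0.12 (adjusted p = 2.6e-04). SNHG8 is one of the hosts whose fall in the presence of prexasertib was not called: it went from 20.4, 21.6 and 24.5 CPM to 16.3, 17.5 and 18.5 CPM, with no overlap (-0.35 ± 0.12, adjusted p = 0.052, and 0.012 with the replicate block).

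SNHG10, a host of SCARNA13, was a low-count gene at 3.84, 7.13 and 5.84 CPM in DMSO and 2.08, 2.77 and 2.73 CPM in 5-Ph-IAA (-1.13 ± 0.26, adjusted p = 0.0071). Between prexasertib (5.59, 5.27 and 6.32 CPM) and both drugs (5.97, 3.82 and 4.08 CPM) its ranges overlapped and the fold change was -0.30 ± 0.25 (adjusted p = 0.45). SNHG20, a host of SCARNA16, fell from 4.14 to 4.75 CPM in DMSO to 2.08 to 3.41 CPM in 5-Ph-IAA, and its call (-0.77 ± 0.22, adjusted p = 0.025) was lost in turn without DMSO library 1 or 3 or 5-Ph-IAA library 1 or 2, at adjusted p up to 0.1.

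GAS5, a long studied growth-arrest transcript with 11 snoRNA entries in its span, was at 69.4, 73 and 83.7 CPM in DMSO and at 39.6, 44 and 62.2 CPM in 5-Ph-IAA. It was at 79.6, 85.8 and 92.9 CPM with prexasertib and at 49.1, 52.5 and 61.9 CPM with both drugs. The libraries numbered 3 were the highest in every group, yet the groups with 5-Ph-IAA stayed below those without it. The fold changes were -0.64 ± 0.15 (adjusted p = 0.0084) and -0.66 ± 0.15 (adjusted p = 0.0079). ZBTB37, which overlaps GAS5 on the opposite strand, had a log2 fold change of 0.15 (adjusted p = 0.8).

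SNHG32, a TOP-start host of SNORD48 and SNORD52, was at 34.4, 41.1 and 38.6 CPM in DMSO, 21.8, 24.3 and 28.4 CPM in 5-Ph-IAA, 38.5, 46.3 and 40.5 CPM with prexasertib, and 25.1, 30.2 and 28.2 CPM with both. Neither contrast had overlapping libraries, and the fold changes were -0.61 ± 0.12 (adjusted p = 0.0025) and -0.59 ± 0.12 (adjusted p = 0.004).

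DANCR, a noncoding RNA named for its effect on differentiation and a host of SNORA26, was at 21.9, 25.3 and 26.5 CPM in DMSO and at 17.6, 17.4 and 15.6 CPM in 5-Ph-IAA (-0.54 ± 0.12, adjusted p = 0.0052). With prexasertib it was at 27.4, 29.8 and 24.4 CPM, and with both drugs at 21.1, 23 and 18.6 CPM (-0.38 ± 0.12, adjusted p = 0.037). The groups did not overlap in either contrast. The second call was lost with library size alone as scaling (adjusted p = 0.18) and on leaving out any of 6 single libraries (adjusted p up to 0.14): prexasertib 1 or 2, 5-Ph-IAA 1 or 2, or both drugs 1 or 3.

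ZFAS1, the host of the SNORD12 snoRNAs, was at 76.4, 62.6 and 75.4 CPM in DMSO and at 48.7, 48.7 and 65 CPM in 5-Ph-IAA. These groups overlapped through 5-Ph-IAA library 3 and DMSO library 2. The log2 fold change was -0.40 ± 0.12 (adjusted p = 0.023), a call lost in turn without DMSO library 1 or 3 or 5-Ph-IAA library 1 or 2 (adjusted p up to 0.1) and with library size alone as scaling (adjusted p = 0.084). With prexasertib present the fall was from 90.7, 83.1 and 94.7 CPM to 55.9, 56.5 and 60.4 CPM, without overlap (-0.64 ± 0.12, adjusted p = 0.0019).

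EPB41L4A-AS1, the host of SNORA13, was at 6.63, 4.84 and 6.23 CPM in DMSO and 4.75, 3.44 and 4.4 CPM in 5-Ph-IAA. It was at 4.87, 8.09 and 8.42 CPM with prexasertib and 2.95, 4.97 and 4.75 CPM with both. The DMSO and 5-Ph-IAA ranges just failed to meet, and neither contrast was called (-0.50 ± 0.26, adjusted p = 0.19, and -0.76 ± 0.26, adjusted p = 0.061). With the replicate block both were called, at adjusted p = 0.047 and 0.0043.

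**Figure D2:**
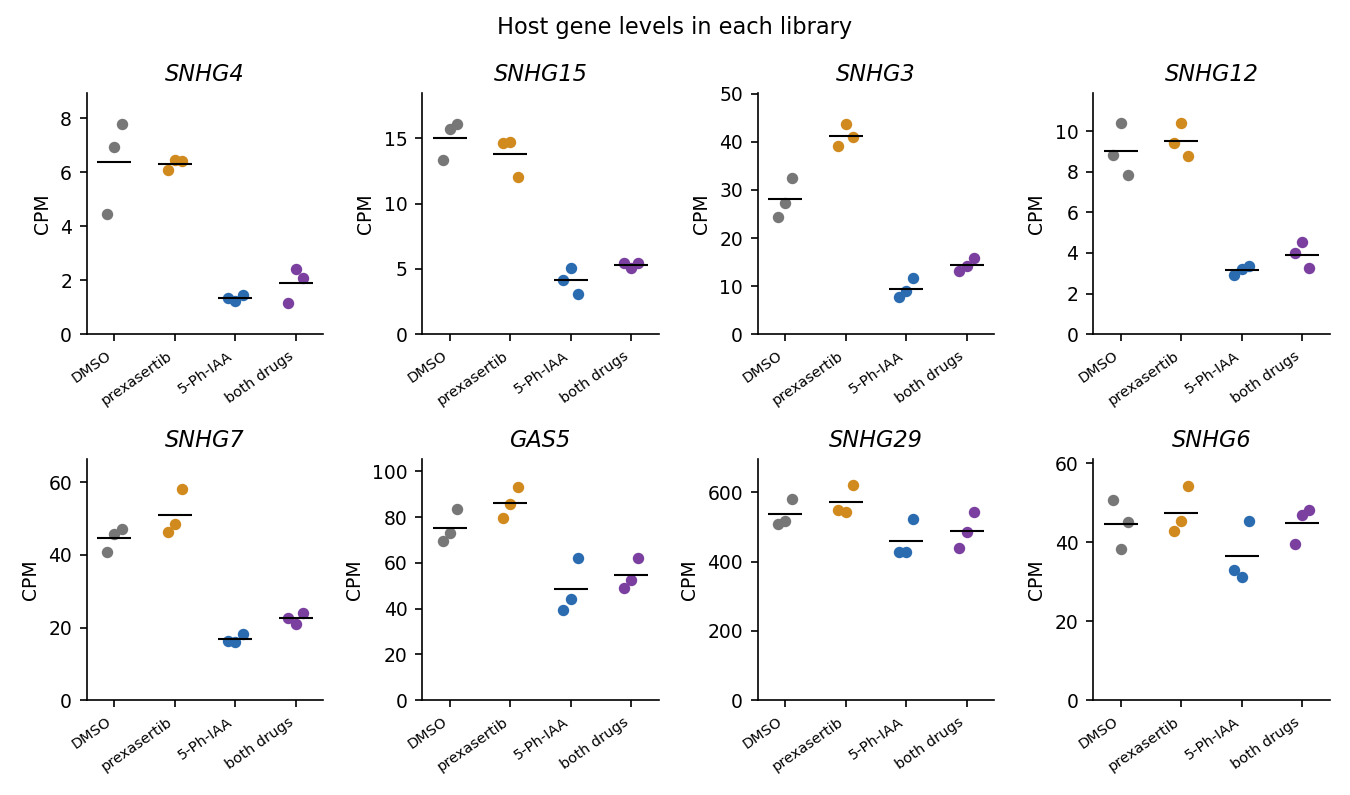
Level of 8 host genes (CPM, vertical axis from 0) in each of the 12 libraries, with points for libraries in the order 1, 2, 3 from left to right and bars for group means. SNHG4, SNHG15, SNHG12 and SNHG7 separate the libraries with 5-Ph-IAA from those without, while SNHG29 and SNHG6 overlap and have their highest 5-Ph-IAA value in library 3.

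The other 9 hosts were not called in either contrast. SNHG5 (SNORD50A and SNORD50B) was at 218, 188 and 236 CPM in DMSO and 139, 147 and 226 CPM in 5-Ph-IAA, and SNHG19 (SNORD60) was at 27.4, 26.6 and 29.5 CPM and 15.7, 15.8 and 27.8 CPM. In both genes 5-Ph-IAA libraries 1 and 2 lay below all DMSO libraries and library 3 did not. Their log2 fold changes were -0.33 ± 0.17 (adjusted p = 0.19) and -0.50 ± 0.21 (adjusted p = 0.11). SNHG29 (SNORD49A, SNORD49B and SNORD65) and SNHG6 (SNORD87) had the same order of libraries, with fold changes of -0.22 ± 0.1 (adjusted p = 0.14) and -0.29 ± 0.15 (adjusted p = 0.19). With the replicate block these 4 genes were called lower against DMSO, at adjusted p = 0.018 for SNHG5, 1.1e-04 for SNHG19, 1.8e-04 for SNHG29 and 0.014 for SNHG6. Without the libraries numbered 3, an alternative chosen after seeing the data, 19 hosts were called lower and 0 higher. The share of all genes called in that fit is not given here, so this count cannot be read as particular to the hosts. LRRC75A, antisense to SNHG29, and MCMDC2, which overlaps SNHG6, were called higher, at log2 fold changes of 1.35 and 1.59. The remaining hosts lay near 0: SNHG21 at -0.09, SNHG33 at 0.09, SNHG11 at 0.11, SNHG9 at 0.21 and SNHG28 at 0.31. SNHG28 was measured from 4 to 16 counts per library, at which a moderate change was not detectable.

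A TOP-like start was present in 4 of the 14 hosts with a promoter entry that were called lower against DMSO (SNHG4, SNHG12, SNHG32 and ZFAS1) and in 2 of the 8 that were not (SNHG5 and SNHG19). With the replicate block, all 6 hosts with the run were among 18 called lower and 0 were among the 4 not called (SNHG11, SNHG21, SNHG28 and SNHG33). Whether the run and the calls go together was not tested. The host with the largest fall and the longest run is SNHG4, but SNHG3 and SNHG17, which have no run at their annotated start, fell by -1.57 and -1.27 on the log2 scale. GAS5, a gene known for a TOP start, had A as its annotated first base in this table.

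Prexasertib on its own raised 1 host. SNHG3 was 1.47-fold higher than in DMSO (log2 fold change 0.56 ± 0.14, adjusted p = 0.035), and 0 hosts were lower. Over all genes tested 2.36% were called higher and 2.37% lower. This call was lost on leaving out any of 7 single libraries: DMSO 1 or 2, prexasertib 1, 2 or 3, 5-Ph-IAA 2, or both drugs 2 (adjusted p up to 0.15, with 0 hosts then called). DESeq2 called 2 hosts higher. Blocking on the replicate number, 5 hosts were called higher, SNHG3, SNHG16, SNHG1, ZFAS1 and GAS5, against 8.37% of all genes called higher. Without the libraries numbered 3 the count was 4. For DESeq2 and the fit without those libraries the share of all genes called is not given here. The median log2 fold change was 0.15 over the hosts and 0 over all genes. SNHG16 (0.28 ± 0.087, adjusted p = 0.091 and 0.0014 with the block) and ZFAS1 (0.32 ± 0.11, adjusted p = 0.14 and 7.2e-04 with the block) had all prexasertib libraries above all DMSO libraries. In 4 hosts the groups did not overlap with prexasertib higher, against 9.78% of all genes tested.

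In cells that also had 5-Ph-IAA, prexasertib again raised 1 host, SNHG8. It was at 16.3, 17.5 and 18.5 CPM with both drugs against 12.5, 10.7 and 13 CPM with 5-Ph-IAA alone (0.54 ± 0.12, adjusted p = 0.027), and 1.17% of all genes tested were called higher and 1.26% lower. The libraries did not overlap. The call was lost without 5-Ph-IAA library 1 or 2 or any 1 of the libraries with both drugs (adjusted p up to 0.16), and the count rose to 2 without DMSO or prexasertib library 3 and to 3 without 5-Ph-IAA library 3. DESeq2 and the strict filter on low counts called 3 hosts each, and the absence of a filter gave 2. With the block, 7 hosts were called higher (all genes: 7.8%): SNHG8, SNHG3 (0.61 ± 0.12), SNHG7 (0.43 ± 0.096), SNHG10 (0.88 ± 0.24), SNHG19 (0.48 ± 0.11), DANCR (0.31 ± 0.11) and SNHG6 (0.31 ± 0.1). Without the libraries numbered 3 the count was 9. For DESeq2, the changed filters and the fit without those libraries the share of all genes called is not given here. The median over the hosts was 0.30.

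**Figure D3:**
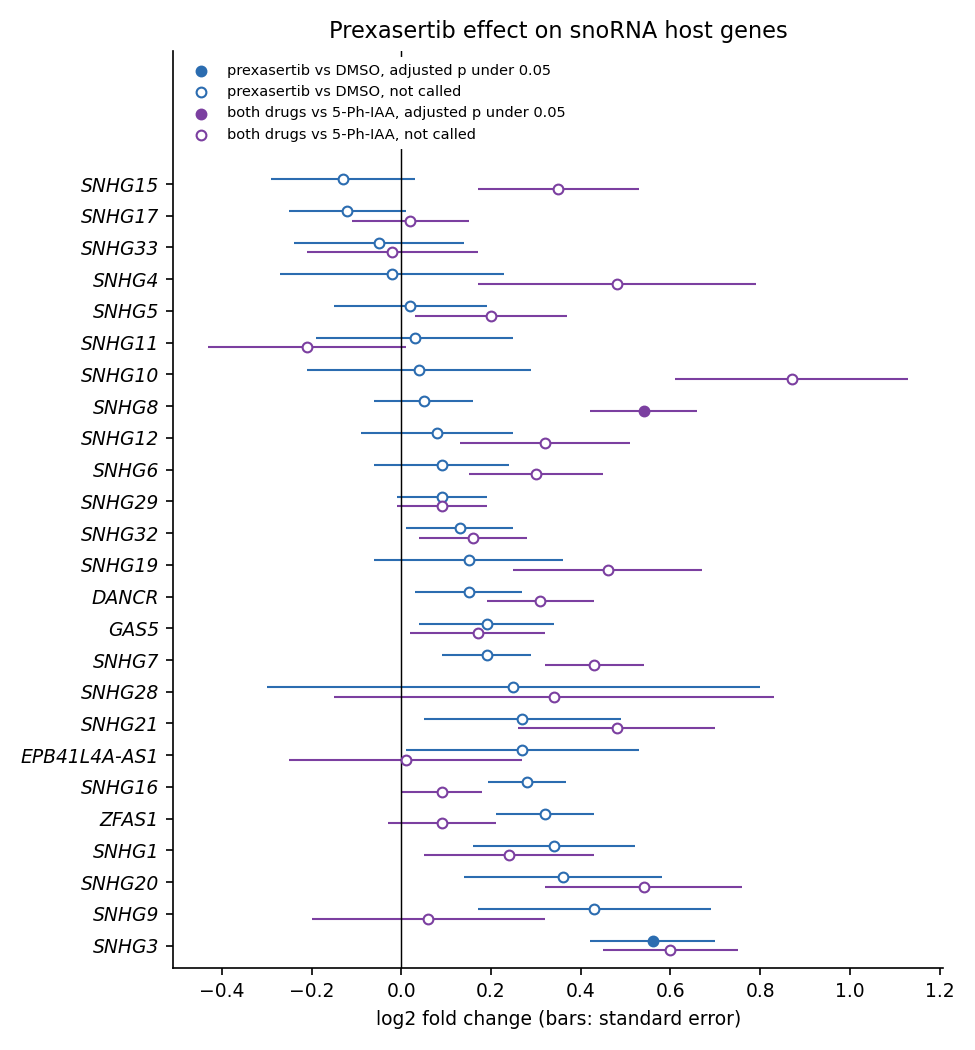
Log2 fold change of the 25 host genes for prexasertib against DMSO and for both drugs against 5-Ph-IAA (bars are the standard error, filled points were called). SNHG3 at 0.56 and SNHG8 at 0.54 are the 2 filled points, and most open points lie to the right of 0.

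Against DMSO, with which the comparisons above share their control libraries, both drugs together left 10 hosts lower and 0 higher, where 14.2% of all genes tested were called lower and 11.8% higher. The values stood at -1.78 for SNHG4, -1.50 for SNHG15, -1.24 for SNHG17, -1.20 for SNHG12, -1.04 for SNHG1, -0.97 for SNHG7, -0.96 for SNHG3, -0.75 for SNHG16, -0.47 for GAS5 and -0.45 for SNHG32. Those of 5-Ph-IAA alone for the same genes were given above. Under the replicate block the count was 13, with SNHG8, SNHG29 and ZFAS1 in addition, where 23.5% of all genes were called lower. The GAS5 call (adjusted p = 0.034) was lost with library size alone as scaling (0.056) and without DMSO library 2 or 3 or library 1 or 2 of both drugs (up to 0.12). The SNHG32 call (adjusted p = 0.013) was lost without DMSO library 2 or library 1 of both drugs (up to 0.062).

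A test of interaction between the 2 drugs, on log values, gave 0 calls among the members and 0% of all 14658 genes tested. At an unadjusted p under 0.05 it gave 2 hosts and 0 snoRNA rows. The share of all genes at that threshold is not given here, so these counts cannot be read as particular to the members. The hosts were SNHG8 (0.49 ± 0.16) and SNHG10 (0.83 ± 0.36), both at an edgeR adjusted p of 1. DESeq2 and limma-voom also called 0 members, and the replicate block called 0 members and 0.655% of all genes.

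The snoRNA rows were measured from few reads. Mature snoRNAs have no poly(A) tail and are short, and the libraries were poly(A)-selected from column-purified RNA, so these rows do not measure the mature snoRNA pool. SNORD3A, the abundant U3 snoRNA, had 0 to 3 counts per library, SNORD118 had 0 and SNORD13 0 to 2. RNAs of related kinds were as sparse, with 0 to 6 counts for TERC, 0 to 27 for RMRP and 4 to 28 for RPPH1. From which molecules the reads of the snoRNA rows came was not tested. Mean counts of the 35 rows ran from 5.58 to 46.67 per library. The rule itself leans toward rows that are high without 5-Ph-IAA: 17 of the 35 reached 10 counts in 3 libraries only among the 6 without it, 0 only among the 6 with it, and 14 in each set.

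Summed over all 412 rows of the table, whatever their count, the level was 74.5 to 105 CPM in DMSO, 75.8 to 105 CPM with prexasertib, 43.2 to 49.1 CPM with 5-Ph-IAA and 41 to 53.6 CPM with both drugs. The libraries with 5-Ph-IAA lay below all those without it, and prexasertib alone gave nearly the same range as DMSO. Over the 35 members the sums were 43.5 to 55.7 CPM in DMSO, 43.1 to 60.9 CPM with prexasertib, 24.4 to 25.2 CPM with 5-Ph-IAA and 24.2 to 27.8 CPM with both.

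Of the 35 rows, 32 passed the filter for testing and SNORA50C, SNORD74 and SNORD109A did not. Against DMSO, 6 of the 32 were called lower with 5-Ph-IAA and 0 higher (all genes tested: 12.2% lower), and with prexasertib present 6 were called lower and 0 higher (10.4% lower). The lists shared 3 rows, SNORD104, SNORA64 and SNORD4A, which is 50% of each. Of these, SNORA64 met the rule through the prexasertib libraries alone. With the replicate block each count was 14, or 43.8% of the rows tested, where 23.6% and 19.9% of all genes were called lower. The first count fell to 3 without DMSO library 1 or 5-Ph-IAA library 2, and the second to 3 without prexasertib library 2 or library 1 of both drugs. A minimum of 50 counts in 3 libraries left only SNORD104, called in both contrasts. SNORD104 reached 50 counts only in libraries without 5-Ph-IAA, so this filter chose it by the same difference and adds no support. In 15 of the 32 rows the 5-Ph-IAA libraries lay below all DMSO libraries (18.9% of all genes tested).

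SNORD104, a box C/D snoRNA of the 28S ribosomal RNA whose span lies in SNHG25, had the highest counts. It had 86, 80 and 79 counts in DMSO (6.48, 7.04 and 6.15 CPM) and 13, 27 and 25 counts in 5-Ph-IAA (0.966, 1.39 and 1.9 CPM). It had 59, 51 and 69 counts with prexasertib and 25, 20 and 26 with both drugs. Every library with 5-Ph-IAA was below every library without it. The level was 4.61-fold lower than in DMSO (-2.21 ± 0.25, adjusted p = 4.7e-05) and 2.88-fold lower than with prexasertib (-1.52 ± 0.25, adjusted p = 8.6e-04).

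Rows in the SNHG1 cluster were sparse. SNORD22 had 15, 19 and 9 counts in DMSO and 3, 3 and 2 in 5-Ph-IAA (-2.67 ± 0.5, adjusted p = 0.002), and 17, 18 and 11 with prexasertib and 10, 6 and 6 with both (-1.24 ± 0.42, adjusted p = 0.058, and 0.033 with the block). SNORD28 had 6, 10 and 6 counts in DMSO and 4, 3 and 0 in 5-Ph-IAA, and 17, 17 and 8 with prexasertib and 1, 6 and 3 with both (-2.19 ± 0.68, adjusted p = 0.04), a call lost without the filter (0.053) and without any of 6 single libraries (DMSO 1, prexasertib 1 or 2, 5-Ph-IAA 2, both drugs 1 or 3, up to 0.15). Libraries with 5-Ph-IAA were the lower ones in each of these contrasts, without overlap. SNORD28 reached 10 counts only in libraries without 5-Ph-IAA, and SNORD22 did so with it only in library 1 of both drugs. Both rows thus met the rule through the groups their falls are measured from, so the separation and the calls add no independent support. Of the other rows in SNHG1, SNORD25 was at -1.40, SNORD29 at -0.92 and SNORD31 at -1.33 against DMSO, none called (with the block SNORD25 at adjusted p = 0.037 and SNORD31 at 0.0054), while SNHG1 itself was at -1.28.

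In GAS5, SNORD80 had 46, 38 and 51 counts in DMSO and 25, 48 and 34 in 5-Ph-IAA. Scaled to depth these were 3.47, 3.34 and 3.97 CPM against 1.86, 2.47 and 2.58 CPM. The levels did not overlap, but the difference was not called (-0.64 ± 0.34, adjusted p = 0.2, and 0.033 with the block). It had 32, 63 and 46 counts with prexasertib and 18, 29 and 41 with both. SNORD47, also in GAS5, had 37, 30 and 23 counts with prexasertib and 10, 6 and 7 with both drugs (-2.14 ± 0.44, adjusted p = 0.0044), and 18, 19 and 13 in DMSO against 15, 12 and 3 in 5-Ph-IAA (-1.03 ± 0.45, adjusted p = 0.12, and 0.038 with the block).

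Of 8 member rows held by ribosomal protein genes, 4 were called lower with 5-Ph-IAA against DMSO (all genes tested: 12.2% lower). The rule for members leaned toward rows that are high without 5-Ph-IAA. The mRNAs that hold the 4 called rows were not called, and 3 of the 4 rows are described here. With the replicate block their holders were called lower too, by much smaller fold changes: -0.29 for RPL10 and -0.16 for RPS2 and RPL23A. SNORA70, in RPL10, had 30, 61 and 22 counts in DMSO and 9, 16 and 5 in 5-Ph-IAA (-2.26 ± 0.53, adjusted p = 0.008), while RPL10 was at -0.27 ± 0.14 (adjusted p = 0.19, and 4.1e-06 with the block). With prexasertib present the change of SNORA70 was not called (24, 35 and 9 counts against 17, 13 and 14, adjusted p = 0.31). The interaction test did not call SNORA70.

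SNORA64, in RPS2, had 6, 8 and 3 counts in DMSO and 1, 2 and 0 in 5-Ph-IAA (adjusted p = 0.027), and 15, 17 and 10 counts with prexasertib against 1, 1 and 3 with both (adjusted p = 0.0039). SNORA64 reached 10 counts only in the prexasertib libraries, so it met the rule through the group its second call is measured from. That second call is therefore no independent support for a fall. The first call was lost without DMSO library 1 or 2 or any 1 of the 5-Ph-IAA libraries (up to 0.098), and RPS2 was at -0.14 ± 0.17 (adjusted p = 0.59, and 0.0094 with the block). SNORD4A, in RPL23A, had 15, 6 and 17 counts in DMSO and 3, 8 and 7 in 5-Ph-IAA, overlapping in counts and in level, and 27, 20 and 26 with prexasertib against 12, 13 and 10 with both. RPL23A was at -0.15 ± 0.096 against DMSO (adjusted p = 0.29, and 0.0066 with the block). The 2 calls of SNORD4A (adjusted p = 0.048 and 0.043) were each lost with library size alone as scaling, without the filter and without the libraries numbered 3 (0.057 to 0.1), and on leaving out any of 10 and of 8 single libraries (up to 0.16 and 0.13).

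The same comparison was made over all rows of the table, so that the minimum count had no part in it. The 58 rows whose span lies in 1 of 30 ribosomal protein genes summed to 18.8, 22.7 and 16.8 CPM in DMSO and 9.77, 9.1 and 9.44 CPM in 5-Ph-IAA. They summed to 21.1, 26.2 and 18.2 CPM with prexasertib and 11.2, 11.3 and 9.82 CPM with both. Every sum with 5-Ph-IAA was below every sum without it. The 30 holder genes summed to 26052, 24978 and 29277 CPM in DMSO, to 21261, 20890 and 27632 CPM in 5-Ph-IAA, to 26785, 25577 and 31047 CPM with prexasertib, and to 23774, 25062 and 29224 CPM with both drugs, and these ranges overlapped in both contrasts through the libraries numbered 3. Between libraries of the same number, both the rows and the holders were lower with 5-Ph-IAA in 6 of 6 pairs.

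For the 58 rows in noncoding hosts, rows and holders both separated. The rows summed to 24.8, 32.6 and 18.7 CPM in DMSO and 10.4, 11.1 and 9.59 CPM in 5-Ph-IAA, and to 27.2, 34.1 and 23.7 CPM with prexasertib and 11.1, 15.4 and 9.38 CPM with both. Their 25 holders summed to 1327 to 1478 CPM in DMSO and 905 to 1160 CPM in 5-Ph-IAA. The 205 rows in 122 other genes lay at 24.2 to 36.9 CPM in DMSO and 17.9 to 20.5 CPM in 5-Ph-IAA, with holders at 27608 to 28809 and 21197 to 22473 CPM. A difference in response between these classes of rows was not tested.

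**Figure D4:**
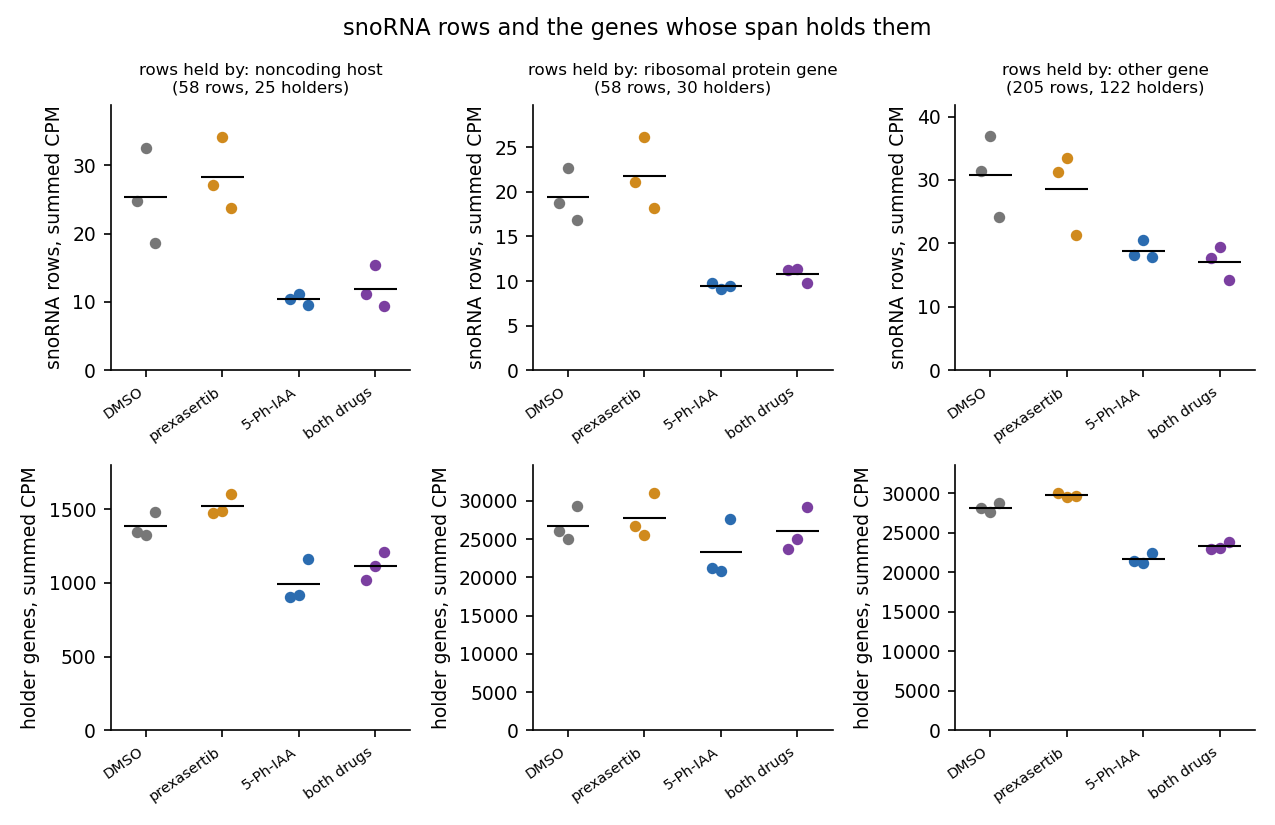
Summed level (CPM, axes from 0) of all snoRNA rows of the table, top, and of the genes whose span holds them, bottom, by kind of holder, with 1 point per library (1, 2, 3 from left to right) and bars for group means. The ribosomal protein holders overlap between groups, with library 3 high, but are lower with 5-Ph-IAA in each of 6 same-numbered pairs, and the rows inside them are at 9.1 to 11.3 CPM in all libraries with 5-Ph-IAA and at 16.8 to 26.2 CPM in those without.

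By class, rows and holders had similar medians outside the ribosomal protein genes. For 5-Ph-IAA against DMSO the median log2 fold change was -1.30 for 11 rows in noncoding hosts and -1.28 for their holders, -0.68 and -0.82 for 10 rows in other genes, and -1.33 and -0.17 for 8 rows in ribosomal protein genes. Several rows kept their ratio to the holder: per 100 holder counts SNORD80 had 4.78 in DMSO and 4.84 in 5-Ph-IAA, SNORD31 3.47 and 3.27, SNORD25 1.25 and 1.15, and SNORA61 14.9 and 17.2. In others it fell, from 1.92 to 0.706 in SNORD22 and from 0.232 to 0.0616 in SNORA70. It rose in others again, from 5.16 to 10.7 in SNORA9 and from 10.6 to 15.5 in SNORA40. Over 29 member rows in 20 tested holders, the log2 fold changes for 5-Ph-IAA against DMSO had the same sign in row and holder in 28 pairs, while Pearson's r between them was 0.058 and Spearman's rho 0.1. These are a description over rows that share libraries, low counts and, in several cases, 1 holder. The row values have standard errors of 0.33 to 0.79, so a low r does not show that row and holder changed independently. Of the 35 member rows, 17 met the rule only through libraries without 5-Ph-IAA. This can draw the medians and signs of the rows down, so they do not show that rows fell more than holders. TAF1D, a subunit of the RNA polymerase I factor SL1 with 4 member rows, fell by a log2 fold change of -0.82 (adjusted p = 0.0074). Its rows SNORA40 (37, 20 and 31 counts in DMSO, 41, 25 and 25 in 5-Ph-IAA, -0.19 ± 0.33) and SNORA18 (31, 20 and 41 against 19, 31 and 27 counts, -0.53 ± 0.38) overlapped between the groups and were not called. Its other rows were not called either, SNORA32 at -0.64 ± 0.4 (adjusted p = 0.28) and SNORA8 at -1.4 ± 0.58 (adjusted p = 0.11). With the block SNORA8 was called lower (adjusted p = 0.027). With prexasertib SNORA40 had 29, 26 and 19 counts and SNORA18 29, 33 and 10, and with both drugs they had 19, 17 and 24 and 19, 11 and 18.

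**Figure D5:**
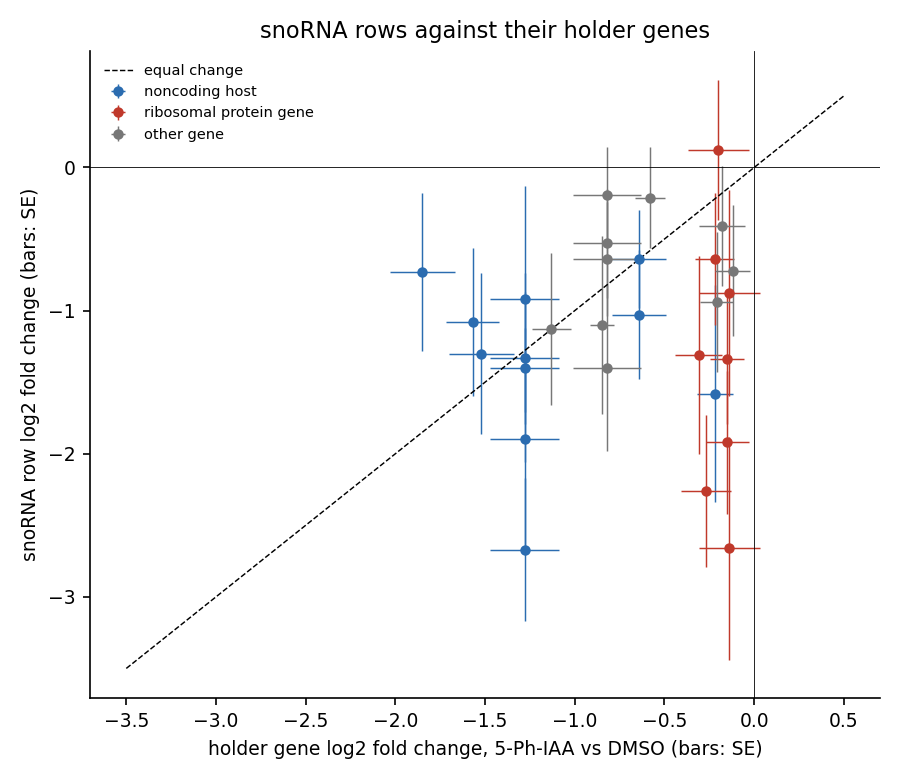
Log2 fold change of 29 member rows (vertical axis) against that of the gene whose span holds them (horizontal axis) for 5-Ph-IAA against DMSO, with standard errors as bars and a dashed line of equal change. Rows of ribosomal protein genes stand in a column at holder values near 0 and reach -2.66 (SNORA64). The rule for members leaned toward rows that are high without 5-Ph-IAA.

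Like SNORD28 and SNORD47, SCARNA12, a guide RNA of Cajal bodies inside PHB2, was called lower with 5-Ph-IAA in the main fit only where prexasertib was present. Against DMSO, SNORD28 was at -1.9 ± 0.78 (adjusted p = 0.1, and 0.023 with the block). SNORD47 was also called there with the block (adjusted p = 0.038), but SCARNA12 was not (0.45). SCARNA12 had 21, 20 and 14 counts in DMSO and 16, 21 and 14 in 5-Ph-IAA (-0.41 ± 0.42, adjusted p = 0.54), and 21, 15 and 19 with prexasertib against 10, 1 and 10 with both (-1.59 ± 0.47, adjusted p = 0.031). The combined group was the lowest, yet the interaction was not called (-1.18 ± 0.63, adjusted p = 1), and the call was lost without any 1 of the prexasertib libraries or library 1 or 2 of both drugs (up to 0.082). SNORD116-4, a brain-enriched snoRNA of the imprinted SNHG14 locus, had 27, 20 and 42 counts in DMSO and 21, 41 and 18 in 5-Ph-IAA, 18, 26 and 20 with prexasertib and 19, 20 and 28 with both, and was not called in any comparison.

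Prexasertib gave 0 calls among the 32 snoRNA rows against DMSO and 0 against 5-Ph-IAA, by edgeR, DESeq2 and limma-voom. At an unadjusted p under 0.05 there were 3 rows in each comparison, and the share of all genes at that threshold is not given here. Blocked by replicate number, SNORD4A was called higher against DMSO (1.08 ± 0.39, adjusted p = 0.048). Both drugs against DMSO gave 5 of 32 rows lower (15.6%, near the 14.2% of all genes called lower) and 0 higher, SNORD104, SNORD88B, SNORA70, SCARNA12 and SNORD31. SNORD88B had 12, 16 and 12 counts in DMSO, 7, 13 and 3 in 5-Ph-IAA, 19, 7 and 6 with prexasertib and 7, 3 and 2 with both. The count was 9 with the block (all genes: 23.5% lower) and 3 with library size alone as scaling or with limma-voom. It was 3 without prexasertib library 1 or 5-Ph-IAA library 1, 2 without library 1 or 3 of both drugs, and 1 without DMSO library 1 or 2 or library 2 of both drugs. For these settings other than the block the share of all genes called is not given here.

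Among protein-coding genes, a wider set of holders leaned the same way. Of 252 protein-coding genes of the table that hold a snoRNA entry, 232 were tested, and with 5-Ph-IAA 68 were called lower and 13 higher against DMSO (29.3% and 5.6%, where all genes gave 12.2% and 9.65%). Their median was -0.19, against 0.01 over all genes. The replicate block gave 122 called lower and 27 higher (52.6% and 11.6%, where all genes gave 23.6% and 19%). Apart from ribosomal protein genes, 67 of 203 fell and 13 rose (98 and 27 with the block). Of the 29 ribosomal protein holders 1 fell, RPL17 (-0.42 ± 0.12, adjusted p = 0.023), and 0 rose, at a median of -0.20; with the replicate block 24 of the 29 were called lower. In the second contrast 73 of the 232 fell and 8 rose (31.5% and 3.45%, against 10.4% and 7.85% of all genes), with 0 of 29 ribosomal protein holders called (7 lower with the block). Of the genes that fell against DMSO, WDR43, a factor of small ribosomal subunit assembly, was at -0.91 ± 0.077.

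Genes for the proteins that bind snoRNAs were in part lower. Of 8 core proteins of snoRNA particles, 3 fell with 5-Ph-IAA and 0 rose (37.5% lower, all genes 12.2%). DKC1, the pseudouridine synthase of box H/ACA particles and itself a snoRNA host, was at -1.18 ± 0.098 (adjusted p = 3.6e-06). NOP56 (-0.85 ± 0.066, adjusted p = 2.2e-06) and NOP58 (-0.69 ± 0.1, adjusted p = 4e-04), paired scaffold proteins of box C/D particles, are snoRNA hosts too. The methyltransferase gene FBL (-0.26), SNU13 (-0.24), GAR1 (-0.26), NHP2 (-0.36) and NOP10 (0.05) were not called. With the block 7 of the 8 were called lower, where 23.6% of all genes were, and NOP10 was not. The same 3 genes were called with prexasertib present, at -1.05 for DKC1, -0.66 for NOP56 and -0.75 for NOP58.

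Of 13 genes for assembly and trafficking of these particles, 3 fell and 1 rose, which is 23.1% and 7.69% beside 12.2% and 9.65% of all genes, at a median of -0.11. NOLC1 (-0.66 ± 0.082) and TCOF1 (-0.55 ± 0.064), both nucleolar phosphoproteins, and RUVBL1 (-0.32 ± 0.099), an ATPase of the R2TP assembly chaperone that is also a TIP60 complex subunit, were lower, and RPAP3 (0.44 ± 0.095), another R2TP subunit, was higher. Of 7 genes for Cajal bodies 1 fell, GEMIN4 (-0.64 ± 0.09), which is 14.3% beside 12.2% of all genes, and 3 with the block (42.9% beside 23.6%).

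Spliced host RNAs are substrates of nonsense-mediated decay. Of 13 genes of that pathway, the shares called were near those of all genes, 15.4% lower and 7.69% higher beside 12.2% and 9.65%: UPF3B (-0.58 ± 0.14) and DHX34 (-0.55 ± 0.091) fell and SMG8 (0.36 ± 0.096) rose. The central helicase gene UPF1 was at -0.19 ± 0.069 (adjusted p = 0.066, and 0.0072 with the block). With the block 6 of the 13 were called lower and 3 higher (46.2% and 23.1%, all genes 23.6% and 19%). Of 19 genes for the exosome and small RNA trimming 3 fell (EXOSC2, EXOSC4 and TOE1) and 2 rose, XRN1 (0.75 ± 0.11) and MPHOSPH6 (0.41 ± 0.11), which is 15.8% and 10.5% and also near the shares of all genes. With the block 8 were lower and 3 higher (42.1% and 15.8%). Whether host RNAs were made less or decayed faster was not tested.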

How the data were processed

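RNA was measured in 12 libraries, 4 groups of 3, placed by sample title. Per the submitters' processing notes the authors used featureCounts 2.0.8, limma 3.58.1 and hg38. The deposited values are raw counts per gene. For the aligner, annotation and strand setting, the sources used here give nothing, so overlapping genes are uncertain; EIF4A1, which holds SNORA67, was listed at 0 in all libraries. Per the labels, the kit was directional and selected poly(A) RNA. The 13 CUT&RUN samples were not analysed here. Of 28395 gene IDs, 27745 matched a symbol in the RefSeq gene table (the other 650 held 0.0324% of the counts).

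Counts were fitted in edgeR 4.0.16 (R 4.3.3) with TMM scaling, filterByExpr (minimum count 10, minimum total 15; 14658 genes and 99.92% of counts kept), 1 term per group and the robust quasi-likelihood F-test. P-values were adjusted by Benjamini-Hochberg over all genes tested, and a call is an adjusted p under 0.05. Every adjusted p is from this test unless another tool is named. SE is the size of the log2 fold change divided by the square root of F. CPM uses TMM-adjusted library sizes. Fold changes of overlapping genes, holders and listed genes are from the same fit. Alternatives were library size alone, DESeq2 1.42.0, limma-voom, no filter, 50 counts in 3 libraries, a replicate block and leaving out each library. The fit was tested on simulated counts: for 5-Ph-IAA against DMSO over 14413 genes, 38 of 50 genes lowered by 1 on the log2 scale and 20 of 50 lowered by 0.585 were called.

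The replicate numbers come from the titles. Deviations from the group means correlated at 0.22 to 0.633 in all 18 same-numbered pairs. In the 36 pairs of different number they correlated at -0.503 to 0.366, so the ranges overlapped. Of the 12 libraries, 10 correlated best with their own number. Libraries of the same number thus shared deviations, but a pairing of every library is not established. The main fit had no replicate block and left such shared deviations in the spread, and results with the block are given beside it. The labels do not say whether libraries came from separate cultures, and p-values then measure only the spread between these samples, which may be technical. Counting error limits the sparse snoRNA rows, and without molecular identifiers a read is not an independent molecule.

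Members, lists and tests were chosen with earlier results of these data known. Values in every library are given for the 14 hosts with the smallest adjusted p against DMSO plus GAS5, ZFAS1, DANCR and EPB41L4A-AS1, and for snoRNA rows with the 6 highest mean counts or the 10 smallest adjusted p among called rows, 1 of which is not reported here. SNHG5, SNHG19, SNHG20, the ratios of rows to holders, the called members of short lists and other genes beyond that rule were chosen after their values were seen. Rows were matched to holders by span only, because the gene table gives no strand for snoRNAs, although the same strand had been planned. In the sums over all rows, a row with several holders went first to a noncoding host, then to a ribosomal protein gene. In the pairs of member rows and holders, it went first to a noncoding host, then to the holder with the shortest span.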

Additional observations from a re-analysis of the deposited data

How the results depend on the processing

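Of 56 called values of single members, 1048 values under alternatives were computed. The call held in 939 and was lost in 109, and 0 changed sign. The counts below stand beside those of the report. Shares of all genes called were given for the main fit and the block only, so counts under other settings cannot be set against them.

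For hosts, prexasertib against DMSO gave 2 calls with DESeq2, 5 with the replicate block, 4 without the libraries numbered 3 and 0 to 2 on leaving out 1 library. Both drugs against 5-Ph-IAA gave 3 with DESeq2, 2 with no filter on low counts, 3 with the strict filter, 7 with the block, 9 without the libraries numbered 3 and 0 to 3 on leaving out 1 library. For 5-Ph-IAA against DMSO the leave-one-out range was 13 to 19, for both drugs against prexasertib 11 to 12, and for both drugs against DMSO 8 to 11.

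For snoRNA rows, 5-Ph-IAA against DMSO gave 1 call with the strict filter, which left 1 row to test, 14 with the block and 3 to 6 on leaving out 1 library. Both drugs against prexasertib gave 1, 14 and 3 to 8 in the same order, and 10 without the libraries numbered 3. Both drugs against DMSO gave 1, 9 and 1 to 6, and 3 with library size alone or limma-voom. Prexasertib against DMSO gave 1 with the block. Beyond the calls named in the report and these counts, the replicate block ended no call of a member. Except for the strict filter, the cause of these shifts was not tested.

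Counts of 0 to 86 per library limit every snoRNA row: changes below a few-fold were not detectable in most of them. The strand setting is unknown, so the values of overlapping genes are uncertain.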
